A study of Homo sapiens with 4 samples.

Results

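Epithelial junction, desmosome and keratin genes were examined in cells of the human lung carcinoma line A549, an established line of alveolar origin. The set holds 40 listed gene symbols, and all 40 were found in the files. Of these, 31 had a mean over the 4 libraries of at least 30 normalized counts and are called measured here, among 12742 measured genes of 42113 gene models. Just inside that limit were CLDN4 (mean 50.5) and EPCAM (113), and just outside it MARVELD3 (29.5) and CLDN3 (27.2).

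All 4 cell populations, the controls included, were infected with a lentivirus that carries a short hairpin RNA (shRNA), and they were kept as stable lines. The groups were LIMA1 shRNA cells given nutlin-3a at 10 µM, control shRNA cells given nutlin-3a at 10 µM, untreated LIMA1 shRNA cells and untreated control shRNA cells, with RNA taken 24 h after treatment. Each group is 1 library, so no comparison within a line or a treatment has a replicate and no p-value is given. Every difference compares libraries, and a difference that the LIMA1 and control shRNA lines may have had for other reasons cannot be told apart from one due to the hairpin. Nutlin-3a keeps MDM2 from binding p53 and so stabilises p53. The study asked what LIMA1 knockdown does to the genes that p53 switches on.

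Epithelial cells are held together by tight junctions, adherens junctions and desmosomes. Tight junctions seal the space between cells through claudins, occludin and their scaffolds. Adherens junctions join cells through E-cadherin and catenins to actin, and desmosomes join them through desmogleins and desmocollins to keratin filaments, which are built from paired type I and type II keratins. LIMA1 encodes EPLIN, an actin-binding protein known to link the cadherin and catenin complex to actin filaments, and SFN and PERP are known p53 target genes of epithelia.

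The libraries held 15.2 to 16.7 M fragments. Values are the authors' normalized fragment counts, not divided by gene length, so levels are compared between genes only after division by transcript length. LIMA1 itself, the gene aimed at by the hairpin, had 133 normalized counts in LIMA1 shRNA cells and 866 in control shRNA cells with nutlin-3a, and 68.3 in LIMA1 shRNA cells and 416 in control shRNA cells without it. It was lower in both LIMA1 shRNA libraries and higher in both nutlin-3a libraries. The p53 target CDKN1A had 48106 normalized counts in LIMA1 shRNA cells and 34078 in control shRNA cells with nutlin-3a, and 1178 in LIMA1 shRNA cells and 1066 in control shRNA cells without it. As a check on the cell type, KRT7, KRT8, KRT18, KRT19 and CDH1 were each above 1000 in every library. EPCAM, on the same list of epithelial markers, was much lower, at 31.1 to 229. KRT5, listed with the airway markers, had at most 3.77 normalized counts in any library. The lung lineage and secretory markers NKX2-1, SFTPC, SFTPB and SCGB1A1 were each under 3 normalized counts in every library. Of the markers of other cells, PTPRC, CD3E, MS4A1, VWF, KDR, COL1A2, PDGFRB and DCN were also under 3 in every library. Low but above 3 in some library were LUM, at 10.7 to 51.8, and COL3A1, PDGFRA, CDH5 and PECAM1. The highest values of these last were 9.43, 6.60, 8.93 and 4.71. The macrophage-associated genes CD68 and CD14, the collagen COL1A1 and the basal cell factor TP63 were measured, CD68 at 613 to 897 and TP63 at 105 to 151. In bulk RNA, fewer cells of a type and less RNA per cell cannot be told apart.

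The epithelial programme of these cells was uneven. Per kilobase of transcript, KRT18 and KRT8, the type I and type II keratin pair of simple epithelia, had the highest levels in untreated control shRNA cells, at 36429 and 31951 normalized counts per kb, followed by KRT7 at 11451. CLDN2, which forms cation-permeable pores in tight junctions, stood at 3241 per kb, against 342 for the sealing claudin CLDN1 and 9.28 for CLDN4. Among cadherins and catenins, E-cadherin (CDH1) was at 533 and alpha-catenin (CTNNA1) at 2268 per kb. EPCAM, the epithelial cell adhesion molecule often used as a carcinoma marker, was at 133 per kb.

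Several listed regulators that usually maintain the epithelial state were near 0. GRHL2, a grainyhead transcription factor, had 1.98 normalized counts in untreated LIMA1 shRNA cells and 0 in the other 3 libraries. OVOL1, a zinc-finger repressor of mesenchymal genes, had 0.993 in nutlin-3a-treated control shRNA cells and 0 elsewhere. The splicing regulator ESRP1 had 0 normalized counts in LIMA1 shRNA cells and 1.99 in control shRNA cells with nutlin-3a, and 2.97 in LIMA1 shRNA cells and 18.9 in control shRNA cells without it, and ESRP2 had at most 5.14 in any library. ST14, which encodes the membrane protease matriptase, lay between 7.54 and 19.9. By contrast ELF3, an epithelial ETS transcription factor, was measured at 4081 to 7361 normalized counts. Of 27 other epithelial regulators outside the set, 15 were measured, among them KLF5 with a mean of 3087, RBM47 with 2789, EHF with 1067 and FOXA1 with 876. So 5 of the 7 genes listed as regulators and others were under the limit, and only ELF3 and SFN of that group were measured. The other members under the limit were CDH3, CLDN3, CLDN7 and MARVELD3, whose highest values in any library were 53.6, 34.9, 33.6 and 44.7.

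**Figure D1:**
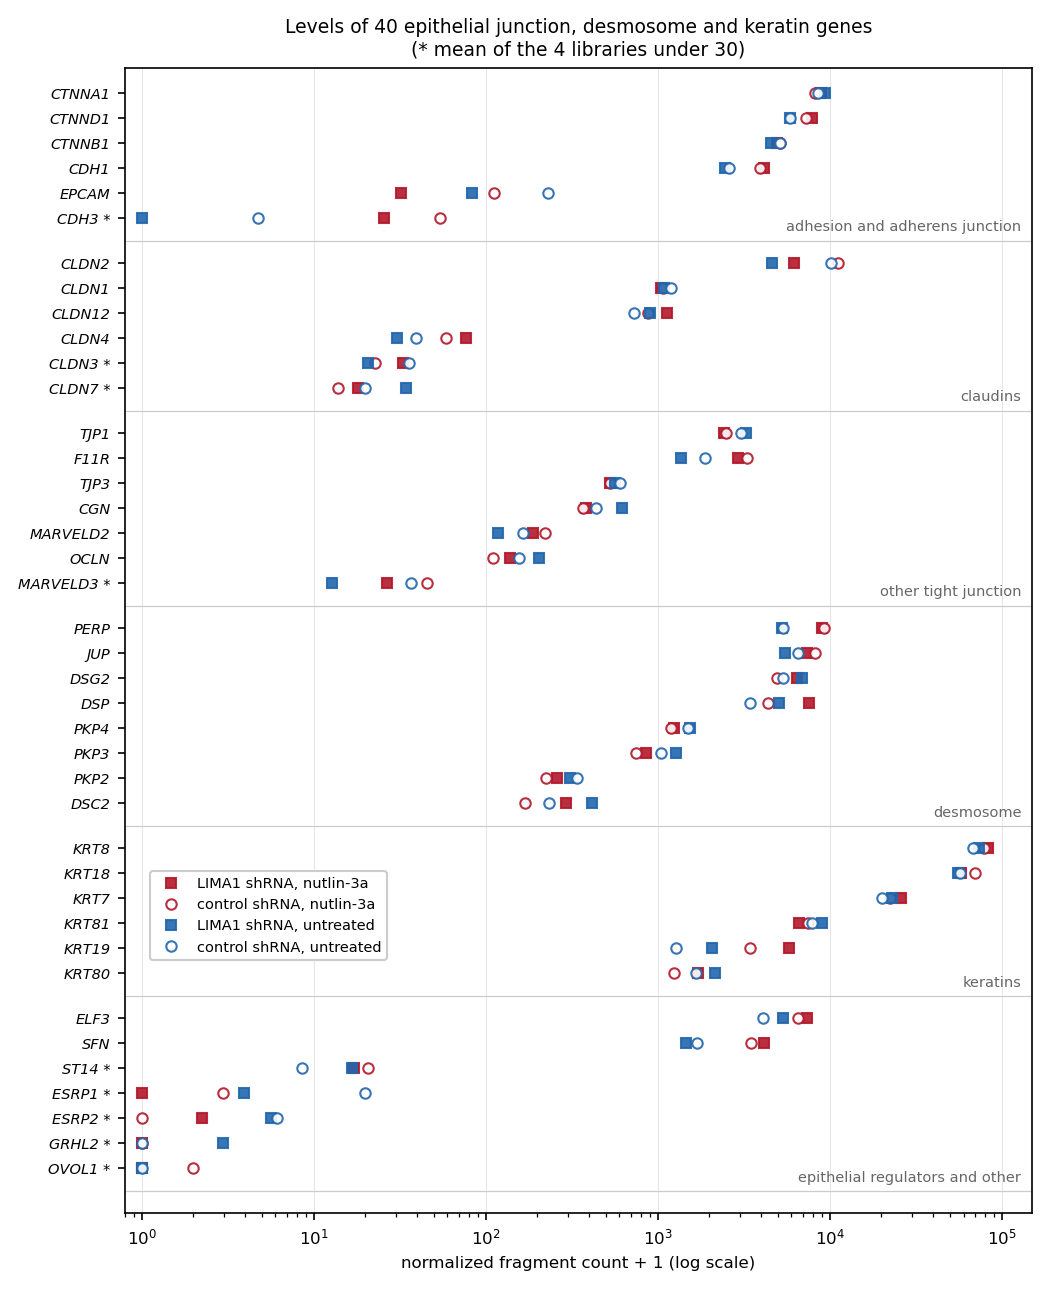
Normalized fragment count plus 1 (log axis) of each of the 40 genes by role, with squares for LIMA1 shRNA and circles for control shRNA cells, red with nutlin-3a and blue untreated. Most genes have 4 points close together over a range of levels that runs from 0 to 82811. EPCAM, KRT19 and SFN spread most among the measured genes, and the low genes CDH3 and ESRP1 also spread widely. An asterisk marks the 9 genes under the limit.

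With nutlin-3a, the keratin KRT19, the p53 target SFN and the junction adhesion molecule F11R were higher in both lines, and EPCAM was lower in both. Differences are between log2(normalized count + 1) values, and a gene counts as called when the difference is 1 or more (higher) or -1 or less (lower). In LIMA1 shRNA cells 4 of the 31 measured members were called higher (KRT19, SFN, CLDN4 and F11R) and 1 lower (EPCAM), where 7.29% of all measured genes were called higher and 6.08% lower. In control shRNA cells 2 were called higher (KRT19 and SFN) and 1 lower (EPCAM), against 5.54% and 5.64% of all genes. At a difference of 0.5, 8 members were higher and 5 lower in LIMA1 shRNA cells (all genes 18.4% and 17.9%), and 7 were higher and 3 lower in control shRNA cells (all genes 16.3% and 16.0%). The median difference over the members was 0.12 in LIMA1 shRNA cells and 0.13 in control shRNA cells, where all measured genes had medians of -0.022 and -0.017. The counts are of few genes and set nothing apart about the group; 17 of the 31 lay above 0 in each line.

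Among the keratins, KRT19, a type I keratin that is common in simple and ductal epithelia, stood out. It had 5840.3 normalized counts in LIMA1 shRNA cells and 3419.8 in control shRNA cells with nutlin-3a, and 2061 in LIMA1 shRNA cells and 1278 in control shRNA cells without it. The levels ordered by both factors, highest with both nutlin-3a and LIMA1 shRNA and lowest with neither. The ratio of nutlin-3a to untreated was 2.83 in LIMA1 shRNA cells (2.69 to 2.98) and 2.68 in control shRNA cells (2.51 to 2.85); the bounds given with ratios are 95% limits by the exact Clopper-Pearson method for counting error alone. KRT19 has near-identical processed copies in the genome, and how the authors shared out such reads is not known. The other 5 keratins of the set stayed within 0.5 of no difference in both lines. KRT7, KRT8 and KRT18 had differences of 0.17, 0.17 and 0.072 in LIMA1 shRNA cells and 0.16, 0.23 and 0.31 in control shRNA cells. KRT80, a type II keratin, was at -0.31 in LIMA1 shRNA cells and -0.42 in control shRNA cells, and the hair keratin KRT81 at -0.45 and -0.08.

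SFN encodes 14-3-3 sigma, a p53-induced protein that holds cells in G2 and is largely limited to epithelia. It had 4138 normalized counts in LIMA1 shRNA cells and 3481 in control shRNA cells with nutlin-3a, and 1468 in LIMA1 shRNA cells and 1692 in control shRNA cells without it. Both nutlin-3a libraries lay above both untreated ones. The ratio of nutlin-3a to untreated was 2.82 in LIMA1 shRNA cells (2.65 to 2.99) and 2.06 in control shRNA cells (1.94 to 2.18). PERP, a p53 target that encodes a tetraspan protein of desmosomes, had 8972 normalized counts in LIMA1 shRNA cells and 9285 in control shRNA cells with nutlin-3a, and 5266 in LIMA1 shRNA cells and 5379 in control shRNA cells without it. Its ratio was 1.70 in LIMA1 shRNA cells (1.65 to 1.76) and 1.73 in control shRNA cells (1.67 to 1.78), under the size for a call in both. ELF3 had ratios of 1.37 (1.33 to 1.42) in LIMA1 shRNA cells and 1.60 (1.54 to 1.67) in control shRNA cells.

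**Figure D2:**
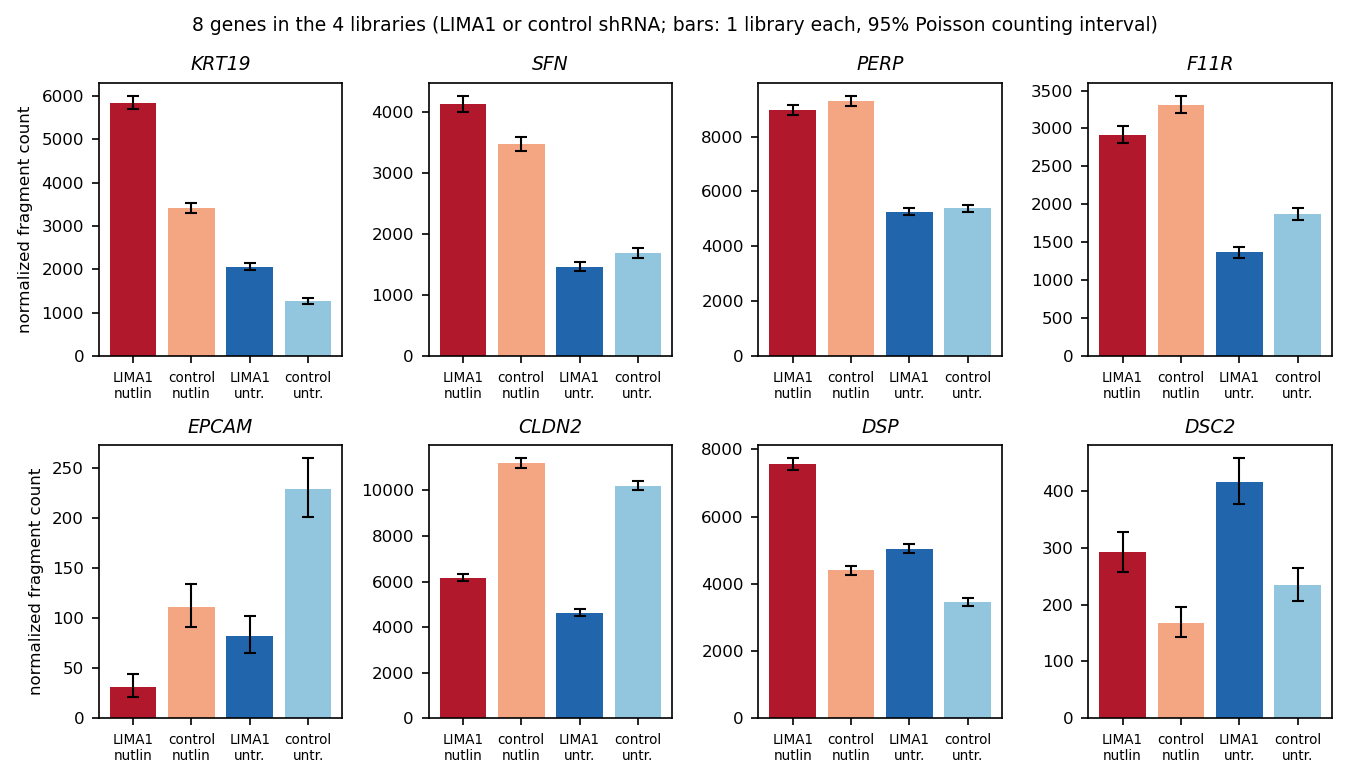
Normalized fragment count (linear axes from 0) of 8 genes in the 4 libraries, with 95% Poisson counting intervals on bars of 1 library each. KRT19, SFN, PERP and F11R are higher in both nutlin-3a libraries, EPCAM and CLDN2 are lower in both LIMA1 shRNA libraries, and DSP and DSC2 are higher in both LIMA1 shRNA libraries.

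The promoters of SFN and PERP are shown because both p53 target genes stood higher with nutlin-3a in both lines. Sequences are RefSeq windows on build GRCh38.p14, from 250 bases before to 50 bases after the start site, 5′ to 3′ along the gene. The capitals mark matches to the E-box CAGGTG (either strand, CACCTG) and to TGANTCA (both strands). TGANTCA is a loose AP-1 pattern with any base at N, and an AP-1 match here means a match to it. The match in PERP reads TGAGTCA, and those in SFN and, further below, CLDN2 read TGATTCA. SFN lies at chr1:26862899-26863198 (plus strand) and PERP at chr6:138107370-138107669 (minus strand).
SFN: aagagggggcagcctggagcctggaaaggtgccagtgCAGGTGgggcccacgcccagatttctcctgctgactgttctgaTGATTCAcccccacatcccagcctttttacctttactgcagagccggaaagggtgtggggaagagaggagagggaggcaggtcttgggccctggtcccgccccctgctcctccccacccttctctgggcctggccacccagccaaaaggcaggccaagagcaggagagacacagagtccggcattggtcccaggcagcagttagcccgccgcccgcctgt
PERP: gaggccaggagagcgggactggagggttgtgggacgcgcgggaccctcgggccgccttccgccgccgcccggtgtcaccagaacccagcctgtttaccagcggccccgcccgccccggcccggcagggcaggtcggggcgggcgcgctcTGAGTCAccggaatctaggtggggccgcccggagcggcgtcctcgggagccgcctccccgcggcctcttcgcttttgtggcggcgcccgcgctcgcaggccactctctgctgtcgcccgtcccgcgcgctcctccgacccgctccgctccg
The SFN window held an E-box at positions -213 to -208 and an AP-1 match at -170 to -164, and the PERP window an AP-1 match at -101 to -95, counted from the start site; the printed matches do not overlap each other. Of the 31 measured members, 20 had a window in the RefSeq table. An AP-1 match was in 4 of these 20 (CLDN2, CLDN4, PERP and SFN) and in 7.71% of all 35116 windows, and an E-box match in 7 of 20 (OCLN, TJP1, DSP, DSG2, DSC2, ELF3 and SFN) and in 20.6% of all. The p53 half-site was in 2 of 20 (TJP3 and KRT8) and in 6.63% of all windows. SFN and PERP thus held no match to it in these windows, and bases outside the windows were not searched. A TATA box, TATAAA on either strand, was in 1 of 20 (ELF3) and in 11.5% of all. A match is a run of letters and not a shown binding site.

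Adhesion genes lay on both sides of 0 with nutlin-3a. EPCAM had 31.1 normalized counts in LIMA1 shRNA cells and 111 in control shRNA cells with nutlin-3a, and 82.1 in LIMA1 shRNA cells and 229 in control shRNA cells without it. It was lowest where nutlin-3a and LIMA1 shRNA were combined and highest where neither was present. The ratio of nutlin-3a to untreated was 0.379 in LIMA1 shRNA cells (0.239 to 0.584) and 0.485 in control shRNA cells (0.385 to 0.610). The difference in control shRNA cells, -1.04, was just past the size for a call and was -0.98 when libraries were scaled to equal upper quartiles. CDH1, the adherens junction cadherin, had 4154 normalized counts in LIMA1 shRNA cells and 3931 in control shRNA cells with nutlin-3a, and 2464 in LIMA1 shRNA cells and 2603 in control shRNA cells without it. It was higher in both nutlin-3a libraries, by 0.75 in LIMA1 shRNA cells and 0.59 in control shRNA cells. Its partners differed less: p120-catenin (CTNND1) by 0.42 in LIMA1 shRNA cells and 0.32 in control shRNA cells, beta-catenin (CTNNB1) in the same order of lines by 0.12 and 0.011, and CTNNA1 by -0.088 and -0.057.

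Tight junction genes likewise lay on both sides of 0. F11R, which encodes the adhesion molecule JAM-A, had 2917 normalized counts in LIMA1 shRNA cells and 3314 in control shRNA cells with nutlin-3a, and 1367 in LIMA1 shRNA cells and 1872 in control shRNA cells without it. Both nutlin-3a libraries were above both untreated ones, with ratios of 2.13 (2.0 to 2.28) in LIMA1 shRNA cells and 1.77 (1.67 to 1.87) in control shRNA cells. CLDN4 was low, at 76.1 and 29.7 normalized counts with and without nutlin-3a in LIMA1 shRNA cells, and 57.6 and 38.6 in control shRNA cells. Its ratio was 2.56 (1.65 to 4.07) in LIMA1 shRNA cells, and in control shRNA cells it was 1.49 with an interval that includes no difference (0.982 to 2.28). MARVELD2, or tricellulin, a protein of the corners where several cells meet, was higher by 0.66 in LIMA1 shRNA cells and 0.43 in control shRNA cells. Occludin (OCLN), a related membrane protein of tight junctions, was on the other side of 0, at -0.56 in LIMA1 shRNA cells and -0.51 in control shRNA cells. The scaffolds cingulin (CGN), ZO-1 (TJP1) and ZO-3 (TJP3) all lay below 0, at -0.69, -0.41 and -0.10 in LIMA1 shRNA cells and -0.24, -0.28 and -0.19 in control shRNA cells. Of the other measured claudins, CLDN12 was at 0.34 and 0.27 in LIMA1 and control shRNA cells, CLDN2 at 0.41 and 0.13, and CLDN1 at -0.056 and -0.15.

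In the desmosome, no member was called with nutlin-3a, and PERP, desmoplakin and plakoglobin lay above 0 and the plakophilins below 0 in both lines. Desmoplakin (DSP), which ties desmosomes to keratin, differed by 0.58 in LIMA1 shRNA cells and 0.35 in control shRNA cells, and plakoglobin (JUP) by 0.43 and 0.32. The plaque proteins PKP3, PKP2 and PKP4 were at -0.59, -0.23 and -0.31 in LIMA1 shRNA cells and -0.48, -0.59 and -0.33 in control shRNA cells; the limits for PKP2 in LIMA1 shRNA cells include no difference (ratio 0.715 to 1.01). The desmosomal cadherin DSC2 was at -0.51 in LIMA1 shRNA cells and -0.48 in control shRNA cells, and DSG2 at -0.095 and -0.11. Medians by role in LIMA1 and control shRNA cells were -0.17 and -0.22 for the 8 desmosome genes and 0.12 and 0.19 for the 6 keratins. In the same order of lines they were 0.38 and 0.20 for the 4 claudins and -0.25 and -0.22 for the 6 other tight junction genes. The 5 adhesion and adherens junction genes, EPCAM among them, had medians of 0.12 and 0.011.

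**Figure D3:**
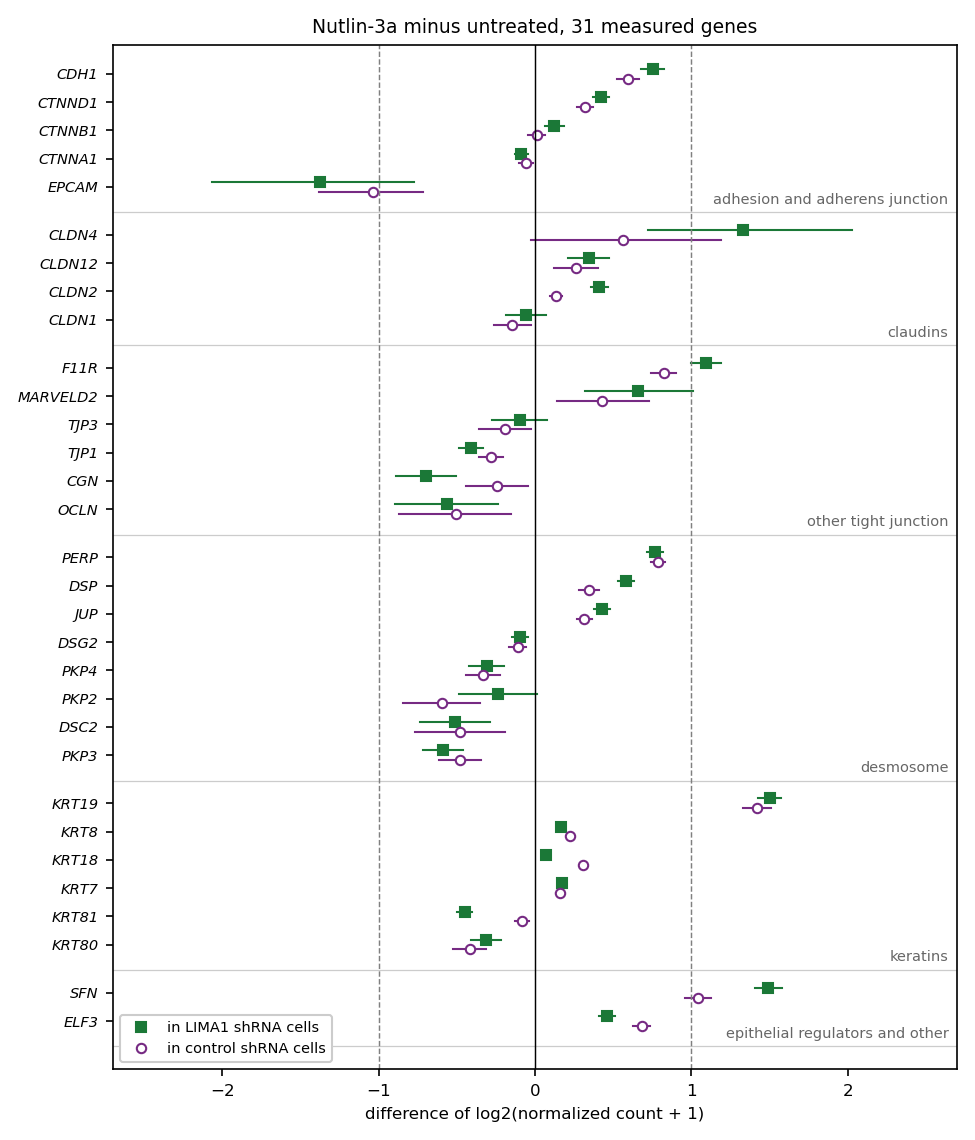
Difference of log2(normalized count + 1) between nutlin-3a and untreated cells (horizontal axis) for the 31 measured genes by role, as green squares in LIMA1 shRNA cells and purple circles in control shRNA cells; lines are 95% counting intervals of the ratio and dashed lines the size for a call. KRT19, SFN and F11R lie farthest right among genes with short intervals, and EPCAM farthest left.

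Between the lines, EPCAM and CLDN2 were lower and the desmosome genes DSC2 and DSP and the keratin KRT19 were higher with LIMA1 shRNA, in both treatments. With nutlin-3a, 1 of 31 members was called lower (EPCAM) and 0 higher, against 1.94% and 1.26% of all measured genes. In untreated cells 2 were called lower (EPCAM and CLDN2) and 0 higher, against 2.05% and 1.04%. At a difference of 0.5, 3 members were higher and 2 lower with nutlin-3a (all genes 5.81% and 6.74%), and 4 were higher and 2 lower in untreated cells (all genes 4.96% and 7.71%). Medians over the members were 0.08 with nutlin-3a and 0.036 untreated, where all genes had 0.028 and 0.024, and here too the counts are of few genes. The untreated median turned to -0.012 with equal library totals and to -0.019 with equal upper quartiles.

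CLDN2 had 6178 normalized counts in LIMA1 shRNA cells and 11201 in control shRNA cells with nutlin-3a, and 4639.9 in LIMA1 shRNA cells and 10208 in control shRNA cells without it. Both LIMA1 shRNA libraries were below both control shRNA libraries. The ratio of LIMA1 to control shRNA was 0.552 with nutlin-3a (0.534 to 0.569) and 0.455 untreated (0.439 to 0.470). CLDN12 was higher in both LIMA1 shRNA libraries, by 0.37 with nutlin-3a and 0.29 untreated, and CLDN1 was at -0.037 and -0.13. For EPCAM, whose values are given above, the ratio of LIMA1 to control shRNA was 0.280 with nutlin-3a (0.179 to 0.424) and 0.359 untreated (0.276 to 0.462). It rested on 29 fragments in nutlin-3a-treated LIMA1 shRNA cells, the fewest of the measured members in any library.

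DSC2, a desmocollin, had 292 normalized counts in LIMA1 shRNA cells and 168 in control shRNA cells with nutlin-3a, and 416 in LIMA1 shRNA cells and 234 in control shRNA cells without it. DSP had 7557 normalized counts in LIMA1 shRNA cells and 4402 in control shRNA cells with nutlin-3a, and 5047 in LIMA1 shRNA cells and 3461 in control shRNA cells without it. For both, LIMA1 shRNA cells were above control shRNA cells in each treatment, while nutlin-3a went with lower DSC2 and higher DSP. The ratio of LIMA1 to control shRNA was 1.74 for DSC2 (1.43 to 2.12) and 1.72 for DSP (1.65 to 1.78) with nutlin-3a, and 1.78 (1.52 to 2.09) and 1.46 (1.40 to 1.52) untreated. DSG2, a desmoglein, was higher by 0.37 with nutlin-3a and 0.36 untreated. Of the rest of the desmosome, JUP was at -0.14 and -0.26, PERP at -0.05 and -0.031, and PKP4 at 0.056 and 0.036, with nutlin-3a and untreated. PKP3 was on the higher side in both, at 0.19 with nutlin-3a (ratio limits 1.03 to 1.26) and 0.29 untreated (1.13 to 1.33). PKP2 was at 0.21 and -0.15, with limits that include no difference in both.

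The promoters of CLDN2, DSP and DSC2 are shown because these genes differed between the lines in both treatments, lower for CLDN2 and higher for DSP and DSC2. Windows, build and capitals are as for SFN and PERP. CLDN2 lies at chrX:106899914-106900213 (plus strand), DSP at chr6:7541421-7541720 (plus strand) and DSC2 at chr18:31102372-31102671 (minus strand).
CLDN2: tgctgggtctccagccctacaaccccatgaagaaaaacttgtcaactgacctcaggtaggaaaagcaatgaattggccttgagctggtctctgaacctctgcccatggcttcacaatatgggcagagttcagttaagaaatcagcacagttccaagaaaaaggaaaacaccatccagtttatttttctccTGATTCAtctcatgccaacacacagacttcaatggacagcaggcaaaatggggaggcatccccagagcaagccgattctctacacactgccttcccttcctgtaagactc
DSP: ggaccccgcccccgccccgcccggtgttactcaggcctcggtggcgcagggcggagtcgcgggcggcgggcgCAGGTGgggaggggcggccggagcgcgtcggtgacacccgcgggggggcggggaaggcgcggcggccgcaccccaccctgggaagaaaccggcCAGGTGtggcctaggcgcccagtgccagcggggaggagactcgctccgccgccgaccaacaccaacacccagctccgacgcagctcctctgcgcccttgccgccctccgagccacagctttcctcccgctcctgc
DSC2: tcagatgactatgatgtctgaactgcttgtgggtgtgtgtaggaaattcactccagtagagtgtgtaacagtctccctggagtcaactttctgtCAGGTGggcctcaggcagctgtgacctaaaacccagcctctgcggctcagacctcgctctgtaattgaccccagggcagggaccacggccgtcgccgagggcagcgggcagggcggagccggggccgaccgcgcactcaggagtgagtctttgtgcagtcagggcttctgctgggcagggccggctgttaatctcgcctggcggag
DSP held the E-box at -178 to -173 and again at -85 to -80, and DSC2 at -156 to -151, whereas the CLDN2 window held an AP-1 match at -60 to -54 and no E-box.

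Among keratins, the ratio of LIMA1 to control shRNA for KRT19 was 1.71 with nutlin-3a (1.64 to 1.78) and 1.61 untreated (1.51 to 1.73). KRT80 was higher by 0.46 with nutlin-3a and 0.36 untreated, and KRT7 by 0.20 and 0.19. KRT8 was at 0.061 and 0.12, and KRT18 at -0.27 and -0.038, both within 0.3 of no difference. KRT81 was at -0.17 and 0.19. KRT7, KRT8, KRT18, KRT81, CLDN1 and ELF3 had values that were not whole fragments in at least 1 library, as reads shared with near-identical copies would give, and their levels are uncertain. The other 25 measured members, KRT19 and KRT80 among them, had whole values.

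The 4 measured adherens junction genes of the set lay within 0.2 of no difference between the lines. CDH1 was at 0.08 with nutlin-3a and -0.079 untreated, CTNND1 at 0.11 and 0.0049, CTNNB1 at -0.063 and -0.18, and CTNNA1, which encodes the binding partner of EPLIN, at 0.11 and 0.15. Among other tight junction genes, F11R was lower with LIMA1 shRNA, at -0.18 with nutlin-3a and -0.45 untreated, as was MARVELD2, at -0.24 and -0.47. CGN was at 0.059 and 0.51, OCLN at 0.33 and 0.38, TJP1 at -0.033 and 0.10, and TJP3 at 0.004 and -0.092. ELF3 was at 0.17 and 0.39.

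Genes on a list of mesenchymal markers also differed between the lines, and their part in the values above was not tested. All 21 listed mesenchymal genes summed to 70799 normalized counts in LIMA1 shRNA cells and 56920 in control shRNA cells with nutlin-3a, and to 53664 in LIMA1 shRNA cells and 45050 in control shRNA cells untreated. The sums were thus higher with LIMA1 shRNA and also higher with nutlin-3a, but a few abundant genes make up most of them. TGFBI, among the largest, hardly differed between the lines, at 0.043 with nutlin-3a and -0.026 untreated. The abundant S100A4 was higher with LIMA1 shRNA, by 0.43 and 0.47, as was FN1. With nutlin-3a the 16 measured genes had a median difference of 0.20 in LIMA1 shRNA cells and -0.17 in control shRNA cells, and VIM was at -0.97 and -0.62. Of the 21 genes, 0 were under 3 in every library. Of the 16 that were measured, 3 were called higher (TNC, ZEB2 and FN1) and 1 lower (SNAI1) with LIMA1 shRNA under nutlin-3a. The shares of all measured genes there were 1.26% and 1.94%. Untreated, 1 was higher (TNC) and 3 lower (SNAI1, CDH11 and FSTL1), against 1.04% and 2.05%. TNC was higher by 2.72 with nutlin-3a and 2.75 untreated, and SNAI1 was lower, at -1.73 and -1.83. ZEB2 was at 1.47 and 0.67, and CDH11 at -0.0075 and -1.55. SNAI1, ZEB2 and CDH11 were just inside the limit, with means of 30.8, 31.7 and 32.9. FN1, which encodes fibronectin, was higher by 1.16 with nutlin-3a and 0.82 untreated, and CDH2, or N-cadherin, by 0.81 and 0.79. VIM, the mesenchymal filament vimentin, was at -0.29 and 0.059, and FSTL1, a secreted glycoprotein, at -0.35 and -1.06.

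**Figure D4:**
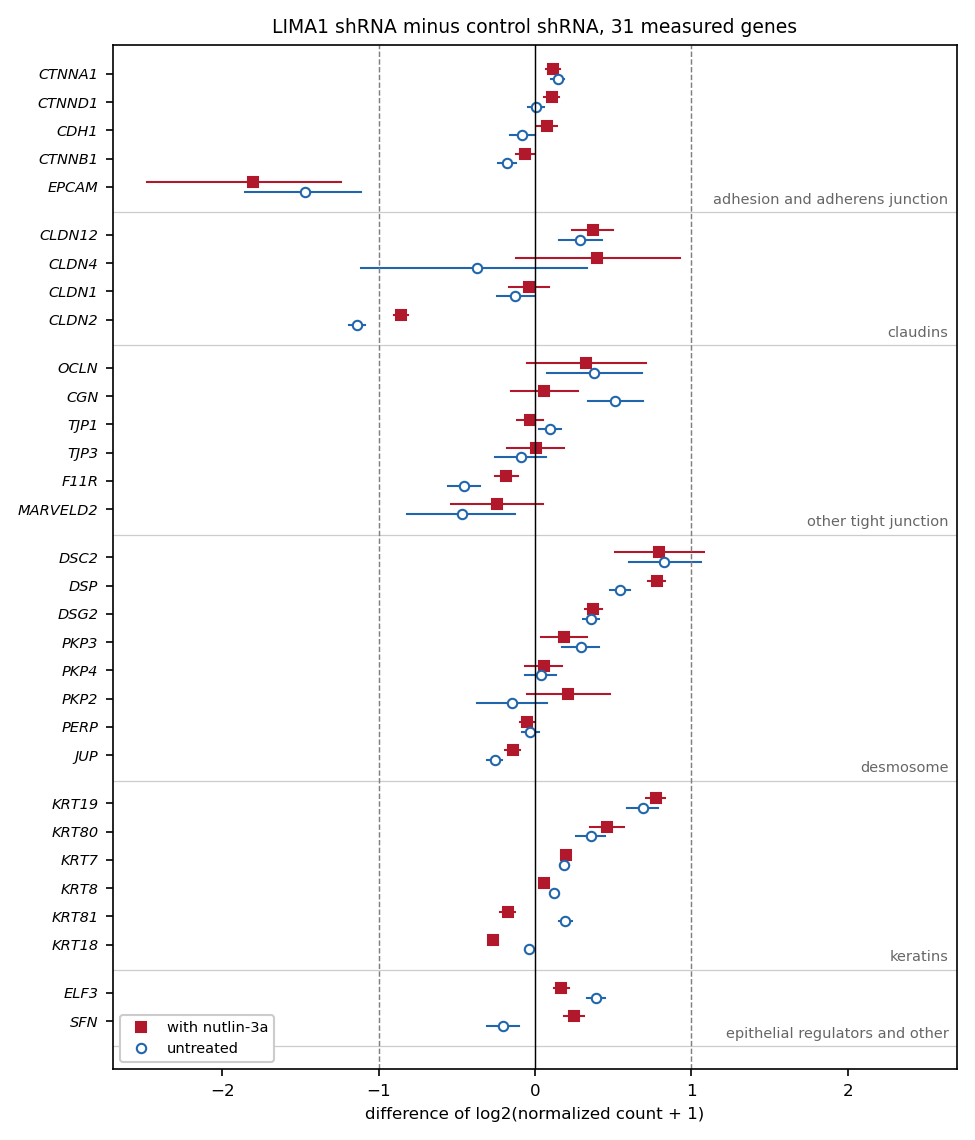
Difference of log2(normalized count + 1) between LIMA1 shRNA and control shRNA cells (horizontal axis) for the 31 measured genes by role, as red squares with nutlin-3a and blue circles untreated; lines are 95% counting intervals of the ratio and dashed lines the size for a call. EPCAM and CLDN2 lie left of the other genes in both treatments, and DSC2, DSP and KRT19 lie farthest right.

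No member's response to nutlin-3a differed between the lines by the size for a call. Taking the nutlin-3a difference in the LIMA1 line less that in the control line, 0 of 31 members reached 1 or -1, where 1.27% of all genes were higher and 0.816% lower; no test was possible with 1 library per group, so no count at an unadjusted p can be given. At 0.5, 1 member was higher (CLDN4, 0.77, on few fragments) and 0 lower, against 5.17% and 4.05% of all genes. SFN had a difference of 0.45, F11R of 0.27, CLDN2 of 0.28 and DSP of 0.24. On the low side were CGN at -0.45, KRT81 at -0.37, EPCAM at -0.34 and KRT18 at -0.23. KRT19 and PERP had differences of 0.083 and -0.019. The median over members was 0.078 and that over all genes 0.0087.

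**Figure D5:**
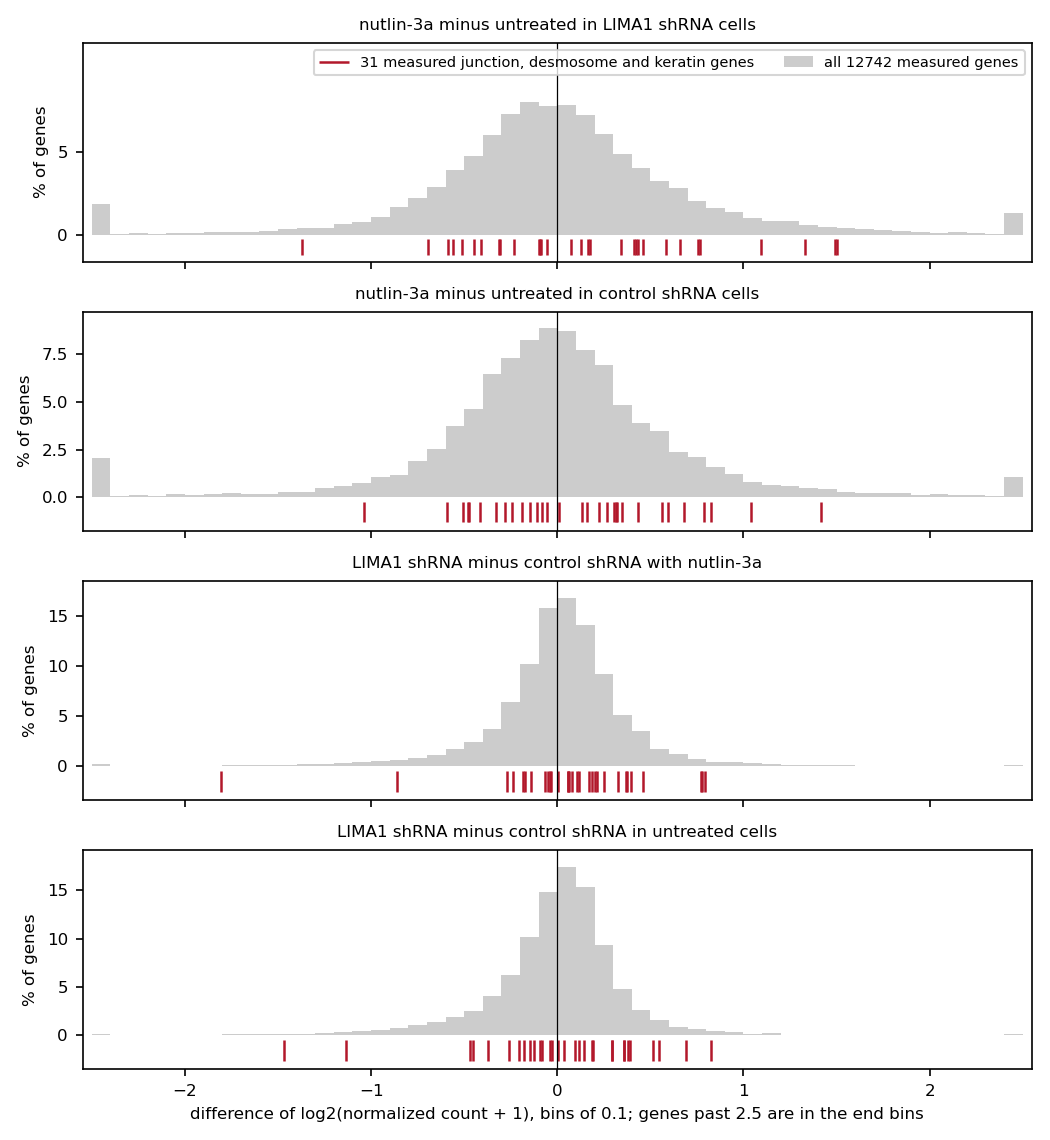
Share of all 12742 measured genes (grey bars, percent) in bins of 0.1 of the difference of log2(normalized count + 1), for the nutlin-3a differences (upper panels) and the shRNA differences (lower panels); red ticks below 0 are the 31 measured junction, desmosome and keratin genes. The ticks spread over the same range as the bulk of the bars, with EPCAM farthest left in all 4 panels and CLDN2 next to it in the lower ones.

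Relatives of these genes outside the set were read from lists of other junction, keratin and regulator genes. Their counts stand against 7.29% of all measured genes called higher and 6.08% lower with nutlin-3a in LIMA1 shRNA cells, and 5.54% and 5.64% in control shRNA cells. For LIMA1 shRNA against control shRNA these shares were 1.26% and 1.94% with nutlin-3a and 1.04% and 2.05% untreated. The lists are short, and nothing is drawn from these counts. Of 9 measured desmosome, plakin and hemidesmosome genes, 2 were called higher with nutlin-3a and 0 lower in each line. DSC3, a desmocollin of stratified epithelia, had 1659 normalized counts in LIMA1 shRNA cells and 1211 in control shRNA cells with nutlin-3a, and 115 in LIMA1 shRNA cells and 143 in control shRNA cells without it. COL17A1, the hemidesmosome collagen, had 1219 normalized counts in LIMA1 shRNA cells and 1256 in control shRNA cells with nutlin-3a, and 19.8 in LIMA1 shRNA cells and 42.4 in control shRNA cells without it. Both were low in the untreated libraries and high in the nutlin-3a libraries, with ratios of 14.5 (12 to 17.6) and 61.6 (39.7 to 101) in LIMA1 shRNA cells and 8.45 (7.14 to 10.1) and 29.6 (22 to 40.8) in control shRNA cells. Between the lines, 0 of the 9 were higher and 0 lower with LIMA1 shRNA under nutlin-3a, and 0 higher and 1 lower (COL17A1) untreated. The member DSC2 lay on the other side of 0 from its relative DSC3 with nutlin-3a in both lines.

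Of 25 other measured tight junction and polarity genes, 1 was called higher and 0 lower with nutlin-3a in each line, and between the lines 0 were lower with nutlin-3a and 1 (JAM3) untreated, with 0 higher in either. Of 18 other measured adherens junction and nectin genes, 4 were higher and 1 lower with nutlin-3a in LIMA1 shRNA cells, and 2 higher and 1 lower in control shRNA cells. With LIMA1 shRNA, 0 were higher and 1 lower under nutlin-3a, and 2 higher and 2 lower untreated. CTNNAL1, an alpha-catenin relative, was lower with nutlin-3a, at -2.41 in LIMA1 shRNA cells and -2.11 in control shRNA cells. PVRL1, which encodes nectin-1, was lower with LIMA1 shRNA, at -1.02 with nutlin-3a and -1.73 untreated, and CDH6, or K-cadherin, was higher by 0.91 and 1.12. Of 5 other measured keratins, 1 was higher with nutlin-3a in LIMA1 shRNA cells and 2 in control shRNA cells, where KRT4, a keratin of mucosal epithelia, was at 1.29 (in LIMA1 shRNA cells 0.98). Between the lines 1 keratin was higher in each treatment and 0 lower. Of 15 other measured epithelial regulators, only the grainyhead factor GRHL3 was called in any of the 4 comparisons, higher with nutlin-3a by 2.83 in LIMA1 shRNA cells and 2.77 in control shRNA cells. Of 4 measured gap junction genes, 1 was called higher and 1 lower in LIMA1 shRNA cells, and 1 higher and 2 lower in control shRNA cells. Here GJD3 was higher with nutlin-3a by 1.71 and 1.31 in LIMA1 and control shRNA cells, and GJC1 was lower, at -2.26 and -1.90. Between the lines 1 gap junction gene was lower untreated and 0 with nutlin-3a.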

How the data were processed

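RNA was sequenced from 4 libraries of A549 cells, 1 per group. Groups follow the titles, where si stands for what the protocols call shRNA. Per the submitters' processing notes, Cuffnorm 2.2.1, Bowtie2 2.0.12, bcl2fastq 1.8.3 and the build hg19 were used, in roles and an order that are not stated; the sources used here do not give the annotation. Each deposited file holds 1 signal value per gene, a normalized fragment count. From the values it is a count over a size factor, since low values step by 1.07, 0.993, 0.990 and 0.943 in LIMA1 shRNA with nutlin-3a, control shRNA with nutlin-3a, untreated LIMA1 shRNA and untreated control shRNA cells. Within 0.1 of a whole number lay 85.5% to 86.3% of values between 0.5 and 1000 fragments. This is under the 95% set for treating them as reads, so no p-value was computed from them. The counting intervals still use each value rounded to whole fragments. They are therefore approximate, above all for the 6 measured members with values that were not whole. Whether limits include no difference speaks to counting error alone. Differences are of log2(normalized count + 1), a scale that understates the change of low genes. Genes with a mean of at least 30 were measured. Transcript lengths are those of the GENCODE 29 APPRIS principal transcript, which the authors' annotation may differ from; promoters are RefSeq windows on GRCh38.p14. The members and lists were chosen with earlier results of these data known. All 40 members could be named. Of other lists, genes past 1 with a mean of at least 150 were, at most 4 per list and contrast. VIM, CDH2, CD68, TP63, JAM3, KLF5, RBM47, EHF, FOXA1, TGFBI, TNC, S100A4, SNAI1, ZEB2, CDH11, LUM, COL3A1, PDGFRA, CDH5, PECAM1 and the promoters shown were chosen after their values were seen. Differences were checked on simulated counts. Each group is 1 library, so intervals cover counting error only. Reads carry no molecular identifiers, so copies of the same molecule cannot be told apart and the intervals may be too narrow. Python 3.11.15, numpy, pandas and scipy were used. Alternatives were other pseudocounts, library scalings, filters, call sizes and leaving out members with values that were not whole.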

Additional observations from a re-analysis of the deposited data

Results flagged for a closer look

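Values marked for a closer look are of 2 kinds. In the first, LIMA1 shRNA stood on opposite sides of control shRNA with and without nutlin-3a, each time past the counting limits; the difference between the treatments was not tested, since each group is 1 library. SFN, the 14-3-3 sigma gene, differed by 0.25 with nutlin-3a and by -0.20 untreated, with ratios of LIMA1 to control shRNA of 1.19 (1.14 to 1.24) and 0.868 (0.810 to 0.930). KRT81, a hair keratin, differed by -0.17 with nutlin-3a and 0.19 untreated, with ratios of 0.886 (0.857 to 0.916) and 1.14 (1.11 to 1.18). Its values were not whole fragments in at least 1 library, so its limits are approximate. CDH1, the E-cadherin gene, differed by 0.080 with nutlin-3a and -0.079 untreated, close to 0 in both. With nutlin-3a its lower limit was 0.015 on the log2 scale, and equal library totals moved the median of all genes by -0.049. Passing the limits there thus depends on the scaling. Untreated, the upper limit for CDH1 was -0.00082 on the log2 scale, barely below 0, and the limits are approximate. In the second kind, a member under the limit for measured genes differed between libraries past counting error. CDH3, the P-cadherin gene, had 24.7 normalized counts in LIMA1 shRNA cells and 53.6 in control shRNA cells with nutlin-3a, and 0 in LIMA1 shRNA cells and 3.77 in control shRNA cells without it. Its nutlin-3a difference was 4.68 in LIMA1 shRNA cells and 3.52 in control shRNA cells. Against a floor of 3 fragments per library in untreated LIMA1 shRNA cells, where it was listed at 0, CDH3 was 8.31-fold higher with nutlin-3a. That value leaves out counting error and is not a lower limit. With the counting error of its 23 fragments and of the 0 included, the 95% lower limit was 6.23-fold. In control shRNA cells the ratio was 14.2 (5.24 to 54.1). ESRP1, the splicing regulator, had 1.99 normalized counts with nutlin-3a and 18.9 untreated in control shRNA cells, a difference of -2.73.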

How the results depend on the processing

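No paired analysis was possible because each group is 1 library and no replicate numbers pair the libraries. Other pseudocounts (0.1, 10 and 30), library scalings, filters and the removal of members with values that were not whole were tried. All 45 medians over members stayed within the binomial 95% limits of the median over members. Those limits come from the spread between members, so staying within them does not show that processing matters little. The median for LIMA1 shRNA untreated turned from 0.036 to -0.012 with equal library totals and -0.019 with equal upper quartiles. That for nutlin-3a in control shRNA cells fell from 0.13 to 0.011 with members that were not whole left out. Of 55 counts of called members, 37 stayed within 1.5 times. Of 210 alternative values of single members, 205 stayed on their side of the size for a call and 5 called values fell short of it: EPCAM in LIMA1 shRNA cells with nutlin-3a (-0.88 at a pseudocount of 30), CLDN4 there (0.83 at 30), and EPCAM in control shRNA cells (-0.98 at 10, -0.88 at 30 and -0.98 at equal upper quartiles). For nutlin-3a in LIMA1 shRNA cells 5 members were called in all, against 3 at a pseudocount of 30, 3 with a mean of at least 150, 10 with no filter, 13 at a size of 0.5 and 0 at a size of 2. For nutlin-3a in control shRNA cells 3 were called, against 7 with no filter, 10 at 0.5 and 0 at 2. For LIMA1 shRNA with nutlin-3a 1 was called, against 0 with a mean of at least 150, 4 with no filter, 5 at 0.5 and 0 at 2. For LIMA1 shRNA untreated 2 were called, against 1 with a mean of at least 150, 6 with no filter, 6 at 0.5 and 0 at 2. For the difference in response 0 were called, against 5 with no filter and 1 at 0.5. Low genes enter by construction with no filter. Scaling turned the sign only of TJP3, CTNND1, PKP4, CLDN1 and CTNNA1, each within 0.057 of 0, and moved the median of all genes by at most 0.076. With 1 library per group, the spread between cultures is unknown, and the intervals show only how few fragments limit EPCAM and CLDN4.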

Other observations

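Ratios of normalized counts of gene pairs within a library do not depend on library scaling. They are not divided by length, so a ratio is compared only across libraries. DSP over JUP, desmoplakin over the plakoglobin it binds, was 1.02 in LIMA1 shRNA cells and 0.538 in control shRNA cells with nutlin-3a, and 0.918 in LIMA1 shRNA cells and 0.526 in control shRNA cells untreated, so the ratio was higher in both LIMA1 shRNA libraries. DSC3 over DSC2, a stratified over a simple epithelial desmocollin, was 5.69 in LIMA1 shRNA cells and 7.22 in control shRNA cells with nutlin-3a, and 0.276 in LIMA1 shRNA cells and 0.613 in control shRNA cells untreated, higher in both nutlin-3a libraries. KRT19 over KRT18 was 0.10 in LIMA1 shRNA cells and 0.0486 in control shRNA cells with nutlin-3a, and 0.0372 in LIMA1 shRNA cells and 0.0225 in control shRNA cells untreated. KRT8 over KRT18, the type II and type I partners of simple epithelia, was 1.42 in LIMA1 shRNA cells and 1.13 in control shRNA cells with nutlin-3a, and 1.33 in LIMA1 shRNA cells and 1.19 in control shRNA cells untreated. CDH1 over CDH2, E-cadherin over N-cadherin, was 8.59 in LIMA1 shRNA cells and 14.3 in control shRNA cells with nutlin-3a, and 3.85 in LIMA1 shRNA cells and 7.06 in control shRNA cells untreated, higher with nutlin-3a in each line and lower with LIMA1 shRNA in each treatment, while CDH1 itself lay within 0.2 of no difference between the lines. CLDN2 over CLDN1 was 5.90 in LIMA1 shRNA cells and 10.4 in control shRNA cells with nutlin-3a, and 4.26 in LIMA1 shRNA cells and 8.58 in control shRNA cells untreated. Of the mesenchymal list, ACTA2, which encodes smooth muscle actin, had 1915 normalized counts in LIMA1 shRNA cells and 2271 in control shRNA cells with nutlin-3a, and 82.1 in LIMA1 shRNA cells and 118 in control shRNA cells without it. It was chosen after its values were seen, and other genes of that list lay below 0 with nutlin-3a, VIM at -0.97 in LIMA1 shRNA cells and -0.62 in control shRNA cells, TNC at -0.90 and -0.86 and CDH2 at -0.40 and -0.42.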
